A study of Mus musculus with 4 samples.

Results

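The genes described here are the PIM kinases Pim1, Pim2 and Pim3 and 5 genes of the MYC network, Myc, Max, Mxd1, Mxi1 and Mga. They were taken by name, as all rows of the deposited table that carry those gene symbols. These 8 genes of the 23920 in the table are covered by 13 of its 33170 RefSeq transcripts, and all 8 reached the minimum of 1 FPKM (fragments scaled to transcript length and to the number of fragments mapped) in 1 library or more. RNA was sequenced from bone marrow-derived macrophage-like cells (BMMs) of C57BL/6 male mice, which the sample labels give as 8 weeks old, after 24 h of culture. The methods section gives a younger age for the marrow donors, and which age applies is not known. There were 4 libraries, 1 per condition, and every culture also received M-CSF (30 ng/mL), the cytokine that keeps macrophages alive. The first was from Stat5 cKO cells (Stat5fl/fl carrying Mx1-Cre) with RANKL and IL-3, the second from Stat5fl/fl cells with RANKL and IL-3, the third from such cells with RANKL, and the last from such cells on M-CSF alone. RANKL was used at 100 ng/mL, and IL-3, where given, at 1 ng/mL. In Stat5 cKO mice, Cre is driven by the interferon-inducible Mx1 promoter and was switched on by poly I:C, so that deletion is not limited to macrophages or osteoclasts. Poly I:C was also given to the Stat5fl/fl littermates, whose floxed Stat5a and Stat5b remain intact. RANKL is the cytokine that turns BMMs into osteoclasts, the cells that resorb bone, and IL-3 is a growth factor of myeloid cells that signals through JAK2 and STAT5. The labels do not say how many mice gave each library.

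PIM proteins are serine/threonine kinases that are active as soon as they are made, so that their amount is set largely by transcription, by mRNA and protein turnover and by HSP90, which protects them. Pim1 is a textbook target of STAT5 downstream of IL-3 and related cytokines. MYC binds DNA as a dimer with MAX at E-box sequences and raises the output of genes for ribosome production, nucleotide synthesis and growth. MXD1, MXI1 (also called MAD2) and MNT dimerise with the same partner and repress such genes, and MGA is a further MAX partner found in a Polycomb-type repressor complex. In mouse lymphoma models the PIM kinases and MYC cooperate, and PIM kinases phosphorylate MYC. In mouse osteoclast precursors, Myc is known as a gene that responds to RANKL.

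The Stat5a gene stood at 0.17 FPKM in the cKO library, against 11.96, 10.8 and 9.89 FPKM in the Stat5fl/fl libraries with RANKL and IL-3, RANKL and M-CSF. Stat5b stood at 0.19 FPKM in the cKO library, against 8.86, 7.80 and 10.8 FPKM in the same order, so the genotype labels fit the reads. The libraries held an estimated 33.4 to 36.9 M fragments. Ratios are given as log2 of (FPKM + 1), which understates differences of low genes, and genes are called higher or lower here where this ratio reached 2-fold in either direction. Over the 10769 genes compared, RANKL gave a median log2 ratio of 0.14 relative to M-CSF, the addition of IL-3 one of -0.15, and cKO one of 0.13 relative to Stat5fl/fl. With 1 library per condition no difference has a replicate check, and the intervals given cover counting error only. Counting half-widths of ratios were computed on FPKM without the added 1, which makes them too wide for the printed ratios of low genes. In bulk RNA, fewer cells of a type and less RNA per cell cannot be told apart. The cell type label reads osteoclast for all 4 cultures, although the title of the M-CSF culture calls it an osteoclast precursor. The osteoclast marker Calcr, the calcitonin receptor gene of mature osteoclasts, was at 0 in every library, whereas Ctsk, the cathepsin K gene, was at 107 FPKM in the cKO library and at 25.8, 338 and 3.60 FPKM in the Stat5fl/fl libraries with RANKL and IL-3, RANKL and M-CSF.

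The sequences around the starts of Pim1 and Max are shown because Pim1 was the gene furthest apart between libraries and because these were the genes with an E-box in the region searched. RefSeq windows (GRCm38.p6), from 250 bases before to 50 bases after a transcription start, matched 7 of the 8 genes, and Myc was not matched. Pim1 has an upstream window at chr17:29490535-29490834 and a downstream window, inside the annotated gene, at chr17:29492835-29493134, both on the + strand. The window of Max lies on the - strand at chr12:76962199-76962498. Capitals mark the E-box letters CACGTG.
Pim1 upstream: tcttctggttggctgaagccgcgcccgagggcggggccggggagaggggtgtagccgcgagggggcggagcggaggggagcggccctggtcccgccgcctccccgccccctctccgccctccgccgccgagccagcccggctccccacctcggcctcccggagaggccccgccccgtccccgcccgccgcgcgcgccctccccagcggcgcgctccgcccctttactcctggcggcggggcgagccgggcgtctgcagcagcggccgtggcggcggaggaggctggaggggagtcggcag
Pim1 downstream: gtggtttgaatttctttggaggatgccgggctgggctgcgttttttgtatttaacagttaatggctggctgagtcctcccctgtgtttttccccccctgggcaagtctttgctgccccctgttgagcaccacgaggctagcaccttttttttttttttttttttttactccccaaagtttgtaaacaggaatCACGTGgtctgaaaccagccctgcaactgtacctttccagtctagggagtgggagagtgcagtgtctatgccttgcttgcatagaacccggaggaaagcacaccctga
Max: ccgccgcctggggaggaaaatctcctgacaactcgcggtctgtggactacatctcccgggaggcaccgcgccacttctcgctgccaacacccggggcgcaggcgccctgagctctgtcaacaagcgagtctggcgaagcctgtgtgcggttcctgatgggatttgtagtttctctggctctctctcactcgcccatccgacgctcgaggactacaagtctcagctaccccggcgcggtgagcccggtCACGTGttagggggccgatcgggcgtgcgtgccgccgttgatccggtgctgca

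The letters CACGTG begin at position -58 from the downstream start of Pim1 and at position -3 from the start of Max. They were searched together with the STAT-type palindrome TTCNNNGAA. Each reads the same on both strands, and neither overlaps the other. Among all 32851 windows of 27025 genes, 7.15% held CACGTG and 8.30% held TTCNNNGAA. None of the 11 windows of the matched genes and Mycl held TTCNNNGAA, which says only that these letters are not in these windows.

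Pim1 (gene ID 18712, chr17:29490753-29496112 on the + strand of GRCm38) was high in a single library. It stood at 7.72 FPKM in Stat5 cKO cells with RANKL and IL-3, and at 40.4, 6.79 and 7.17 FPKM in Stat5fl/fl cells with RANKL and IL-3, RANKL and M-CSF. The approximate 95% counting intervals of the 3 low libraries overlapped, at 7.18 to 8.28, 6.28 to 7.33 and 6.62 to 7.74 FPKM for cKO, RANKL and M-CSF, and that of the high library was 39.2 to 41.7 FPKM. Pim1 was thus 5.96-fold higher in FPKM with RANKL and IL-3 than with RANKL in Stat5fl/fl cells, a log2 ratio of 2.41 with a counting half-width of 0.12. That ratio ranked 98 from the highest of the 10769 genes. The cKO library had less Pim1 than Stat5fl/fl cells given the same cytokines, which held 5.24 times as many FPKM, a log2 ratio of -2.25 with a half-width of 0.11, which ranked 75 from the lowest. Of the FPKM difference between RANKL with IL-3 and RANKL in Stat5fl/fl cells, 2.76% was present in the cKO library. That share is measured from the Stat5fl/fl library with RANKL. There was no cKO library without IL-3, so the response of cKO cells to IL-3 is not known. RANKL against M-CSF gave a log2 ratio of -0.07 with a half-width of 0.16.

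Pim2 (gene ID 18715, chrX:7878262-7883432) and Pim3 (gene ID 223775, chr15:88862186-88865726) did not follow Pim1. Pim2 was the lowest of the 8 genes in all 4 libraries, at 1.92 FPKM in the cKO library and at 1.60, 2.00 and 1.62 FPKM in the Stat5fl/fl libraries with RANKL and IL-3, RANKL and M-CSF. Between 60.1 and 79.0 fragments lie behind these values, and all 4 counting intervals overlapped, from 1.23 to 2.49 FPKM in all. A difference in Pim2 was not detectable at this depth. Pim3 stood at 11.3 FPKM in the cKO library and at 8.72, 13.7 and 5.02 FPKM in the Stat5fl/fl libraries in the same order. It was 2.72-fold higher in FPKM with RANKL than with M-CSF, a log2 ratio of 1.28 with a half-width of 0.16. With IL-3 added to RANKL the Pim3 log2 ratio was -0.59, and for cKO against Stat5fl/fl it was 0.35, both short of 2-fold.

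The make-up of the family differed accordingly. The 3 PIM genes summed to 21.0 FPKM in the cKO library and to 50.7, 22.4 and 13.8 FPKM in the Stat5fl/fl libraries with RANKL and IL-3, RANKL and M-CSF. Pim1 made up 36.8% of the sum in the cKO library, against 79.7%, 30.3% and 51.9% in the Stat5fl/fl libraries in the same order. Pim3 was the most abundant of the 3 in the cKO library, at 54.1%, and in Stat5fl/fl cells with RANKL, at 60.8%. Each PIM gene has 1 transcript in the table.

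**Figure D1:**
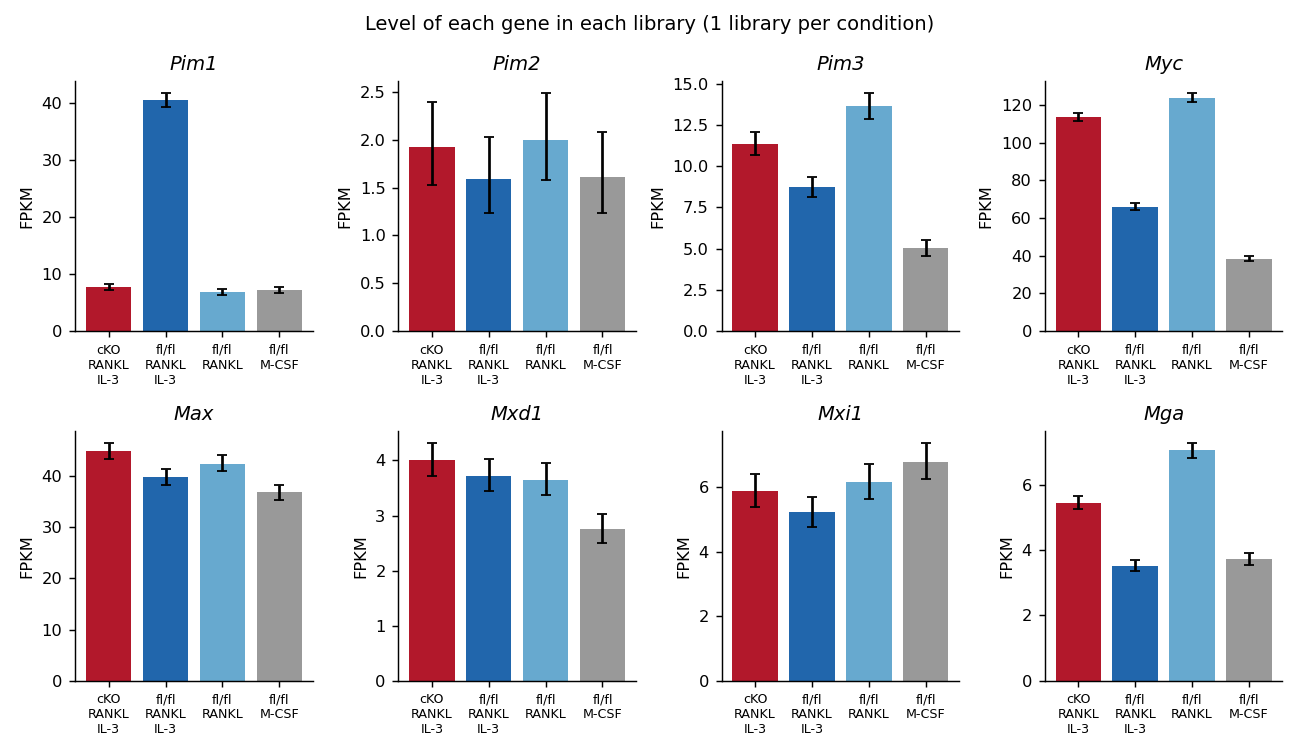
Level in FPKM (y axis, from 0, scaled per gene) of the 8 genes in the 4 libraries (x axis, 1 bar per library). Error bars are approximate 95% counting intervals and do not show variation between cultures; Pim1 stood at 40.4 FPKM in Stat5fl/fl cells with RANKL and IL-3 and between 6.79 and 7.72 FPKM elsewhere.

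Myc (gene ID 17869, chr15:61985391-61990374) was the most abundant of the 8 genes in every library and took a different course. It stood at 114 FPKM in the cKO library and at 66.1, 124 and 38.4 FPKM in the Stat5fl/fl libraries with RANKL and IL-3, RANKL and M-CSF. None of the counting intervals overlapped, and those of the 2 highest libraries were 111.5 to 116 FPKM for cKO and 122 to 127 FPKM for Stat5fl/fl with RANKL. RANKL against M-CSF gave 3.23-fold more Myc, a log2 ratio of 1.67 with a half-width of 0.06, which ranked 181 from the highest. Adding IL-3 gave a log2 ratio of -0.90, or -0.75 after the median of all genes was taken off, and cKO against Stat5fl/fl gave 0.78, or 0.65 after the same step. Both stayed within 2-fold. The FPKM difference between RANKL and M-CSF was present in the cKO library at 88.1% and in the Stat5fl/fl library that received IL-3 at 32.4%. Both shares are measured from the Stat5fl/fl library with M-CSF, as there was no cKO library on M-CSF alone. The library with the most Pim1 had less Myc than the other 2 that received RANKL.

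Max (gene ID 17187, chr12:76937269-76962201), the partner shared by the whole network, varied little. It stood at 44.96 FPKM in the cKO library and at 39.8, 42.5 and 36.8 FPKM in the Stat5fl/fl libraries with RANKL and IL-3, RANKL and M-CSF. Its log2 ratio was 0.20 for RANKL, -0.09 with IL-3 and 0.17 in cKO, each within 0.07 of the median of all genes, and the sign for IL-3 turned to 0.08 with median-ratio scaling. Myc FPKM was 2.53 times that of Max in the cKO library, against 1.66, 2.92 and 1.04 times in the Stat5fl/fl libraries in the same order.

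The genes of the other MAX partners were low, between 2.76 and 7.05 FPKM. Mxd1 (gene ID 17119, chr6:86647042-86669161) stood at 4.01 FPKM in the cKO library and at 3.72, 3.65 and 2.76 FPKM in the Stat5fl/fl libraries with RANKL and IL-3, RANKL and M-CSF. Mxi1 (gene ID 17859, chr19:53310518-53375810) stood at 5.88 FPKM in the cKO library and at 5.22, 6.16 and 6.80 FPKM in the same order. The 6 log2 ratios of Mxd1 and Mxi1 lay between -0.20 and 0.31. Mga (gene ID 29808, chr2:119897228-119969581) came closest to the Myc course, at 5.44 FPKM in the cKO library and 3.52, 7.05 and 3.73 FPKM in the Stat5fl/fl libraries in the same order. Its log2 ratio was 0.77 for RANKL, -0.83 with IL-3 and 0.51 in cKO. On FPKM without the added 1, Mga was 2.01-fold higher with RANKL than with RANKL and IL-3, so that the scale decides on which side of 2-fold it falls.

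Transcripts were read separately where a gene has more than 1. The Myc transcript NM_010849 carried 76.3% of Myc FPKM in the cKO library and 73.8%, 71.8% and 75.2% in the Stat5fl/fl libraries with RANKL and IL-3, RANKL and M-CSF, so both Myc transcripts followed the gene. For Mxi1, NM_010847 carried 74.1% in the cKO library and 65.1%, 67.1% and 56.6% in the same order, while NM_001008543 did not exceed 0.08 FPKM. The main Mga transcript NM_013720 carried 92.9% in the cKO library and 77.8%, 92.8% and 85.4% in the same order. It stood at 5.06 FPKM in the cKO library and at 2.73, 6.54 and 3.18 FPKM in the Stat5fl/fl libraries, and by this transcript alone Mga passed 2-fold with IL-3. The shares within a gene are estimates of the authors' software and have no interval here.

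Counted together, 2 of the 8 genes (Pim3 and Myc) were at least 2-fold higher with RANKL than with M-CSF, beside 12.3% of all genes compared (5.44% higher and 6.87% lower). With IL-3 added to RANKL, 1 of 8 (Pim1) was 2-fold apart, beside 9.58% of all genes (6.11% higher and 3.47% lower). For cKO against Stat5fl/fl, 1 of 8 (Pim1) was 2-fold apart, beside 6.42% of all genes (2.13% higher and 4.29% lower). With 1 or 2 genes counted, these shares were not compared further with those of all genes. Scaling by the median ratio shifted the split of all genes, which was 586 higher and 740 lower for RANKL and 658 higher and 374 lower for IL-3, to 436 higher and 937 lower and to 818 higher and 271 lower.

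**Figure D2:**
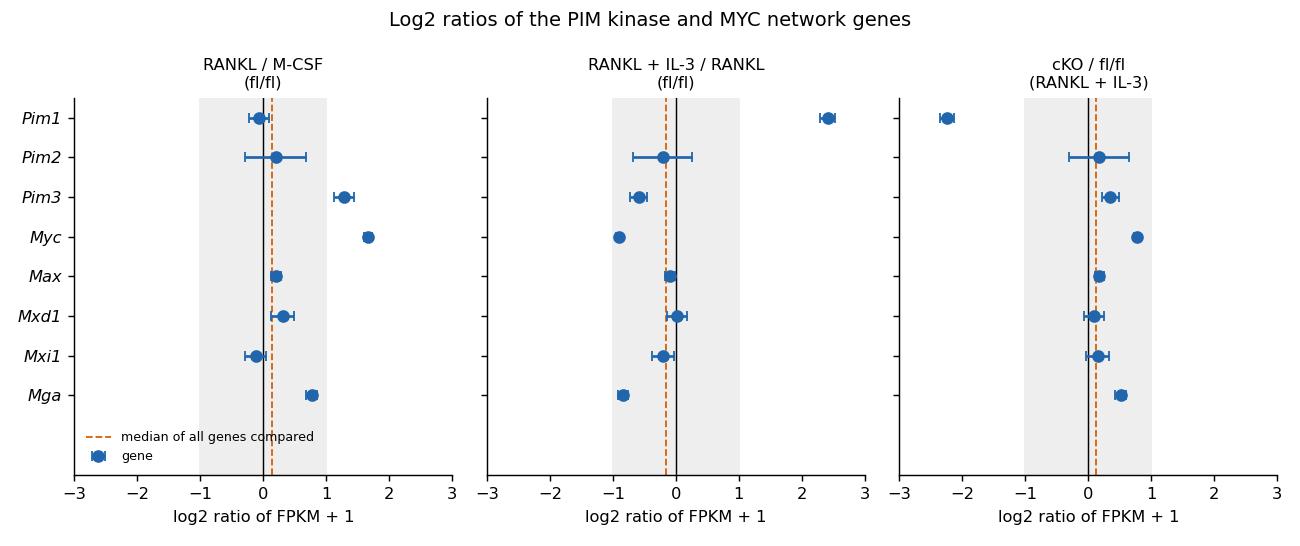
Log2 ratio of FPKM + 1 (x axis) of the 8 genes (y axis) in the 3 comparisons. Bars give the counting half-width, computed without the added 1. A dashed line marks the median of all genes compared, and grey shading lies within 2-fold. Pim1 lies at 2.41 with IL-3 and at -2.25 in cKO, and Pim3 and Myc lie beyond 2-fold with RANKL, at 1.28 and 1.67.

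Against M-CSF alone, Stat5fl/fl cells with RANKL and IL-3 had log2 ratios of 2.34 for Pim1, 0.69 for Pim3 and 0.77 for Myc. When cKO cells given RANKL plus IL-3 were set against Stat5fl/fl cells given RANKL, the 8 ratios ran from -0.32 (Mga) to 0.16 (Pim1). These comparisons share their libraries with the 3 above and are given as values only.

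The level of Myc relative to Mxd1, Mxi1 and Mga differed more than the sum of these partners did. Myc FPKM over the summed FPKM of Mxd1, Mxi1 and Mga was 7.42 in the cKO library, against 5.30, 7.35 and 2.89 in the Stat5fl/fl libraries with RANKL and IL-3, RANKL and M-CSF. The denominator was 15.3 FPKM in the cKO library and 12.5, 16.9 and 13.3 FPKM in the others in the same order, a narrower range than that of Myc. With Mxd3, Mxd4 and Mnt in place of Mga, the ratio was 4.15 in the cKO library and 2.15, 4.25 and 1.03 in the Stat5fl/fl libraries. These are ratios of transcripts and not of proteins.

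**Figure D3:**
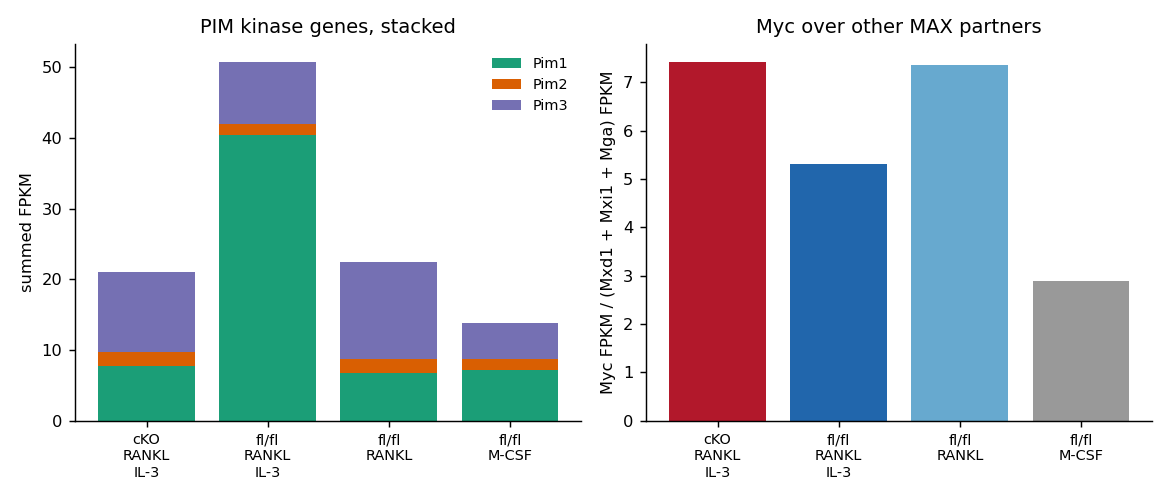
Left, FPKM of Pim1, Pim2 and Pim3 stacked (y axis) in each library (x axis); right, Myc FPKM divided by the summed FPKM of Mxd1, Mxi1 and Mga. Stat5fl/fl cells with RANKL and IL-3 had the largest PIM sum, 50.7 FPKM, while the Myc ratio was highest in the cKO library and the Stat5fl/fl library with RANKL, at 7.42 and 7.35.

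Among the other genes of the network, Mycl, a MYC family member known for its expression in mouse dendritic cells, had the largest differences. Mycl (chr4:122995652-123002485) stood at 18.3 FPKM in the cKO library and at 2.26, 22.4 and 0.06 FPKM in the Stat5fl/fl libraries with RANKL and IL-3, RANKL and M-CSF. Its log2 ratios were 4.47 for RANKL against M-CSF (rank 9 from the highest), -2.85 with IL-3 (rank 18 from the lowest) and 2.57 for cKO against Stat5fl/fl (rank 9 from the highest). It was high in the 2 libraries where Ctsk was above 100 FPKM, and even there its FPKM was 0.16 and 0.18 times that of Myc, in cKO and RANKL. The 12 osteoclast markers summed to 569.9 FPKM in the cKO library and to 193, 1351 and 83.8 FPKM in the Stat5fl/fl libraries, the same order as Mycl. Of the 10 compared, 8 were higher with RANKL, 8 were lower with IL-3 and 5 were higher in cKO. The shares over all genes were 5.44%, 3.47% and 2.13%. The marker Itgb3, an integrin gene, had log2 ratios of the opposite sign (-0.39, 0.23 and -0.60). Whether Mycl and these markers are linked was not tested.

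Of the 8 other network genes, 6 were compared. Mxd3, a further MYC antagonist of proliferating cells, stood at 3.00 FPKM in the cKO library and at 3.54, 2.08 and 6.54 FPKM in the Stat5fl/fl libraries with RANKL and IL-3, RANKL and M-CSF, and was more than 2-fold lower with RANKL than with M-CSF (log2 ratio -1.29). Mxd4, an antagonist found in resting and differentiating cells, stood at 4.38 FPKM in the cKO library and at 9.69, 5.99 and 11.01 FPKM in the same order, the reverse of the Myc order except between cKO and RANKL. Its log2 ratio for cKO against Stat5fl/fl was -0.99, just inside 2-fold. Mnt stood at 10.1 FPKM in the cKO library and 8.52, 11.3 and 10.3 FPKM in the others. Mlx, the MAX-like partner of the glucose sensors, stood at 26.9 FPKM in the cKO library and 25.3, 24.6 and 24.1 FPKM in the others, and Mlxip, which encodes the sensor MondoA, at 9.31 FPKM in the cKO library and 9.12, 12.9 and 6.98 FPKM in the others. Mycn and Mlxipl were not above 0.05 and 0.17 FPKM in any library.

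**Figure D4:**
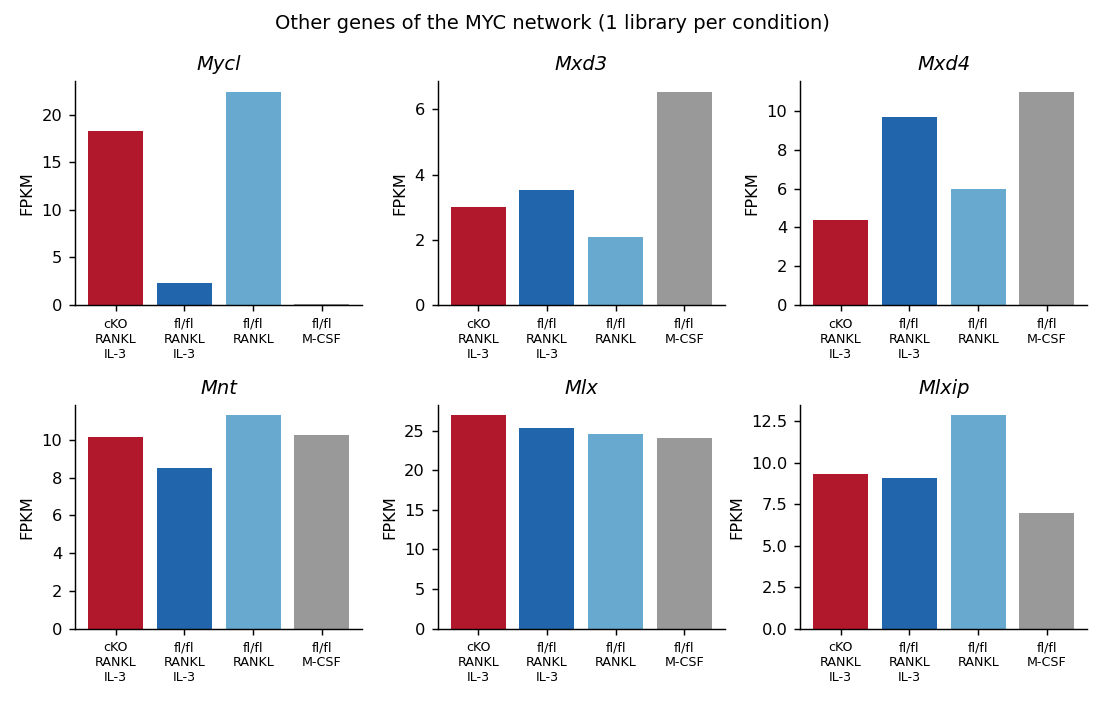
FPKM (y axis, from 0, scaled per gene) of Mycl, Mxd3, Mxd4, Mnt, Mlx and Mlxip in the 4 libraries (x axis, 1 bar per library, no error bars). Mycl stood at 18.3 FPKM in the cKO library and 22.4 FPKM in Stat5fl/fl cells given RANKL, and at 2.26 FPKM or less in the others.

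Known MYC targets were grouped into nucleolar and ribosome production genes, growth and metabolic genes, and genes that MYC represses. With RANKL against M-CSF, 18 of the 28 nucleolar genes reached 2-fold higher levels and 0 reached 2-fold lower ones (median log2 ratio 1.11, against 0.14 for all genes). With IL-3 added, 0 were higher and 4 were lower (Dkc1, Ncl, Polr1b and Rcl1; median -0.76, against -0.15 for all genes), and all 28 ratios were below 0. For cKO against Stat5fl/fl, 1 was higher (Dkc1) and 0 were lower (median 0.65, against 0.13 for all genes), and all 28 ratios were above 0. Dkc1, the pseudouridine synthase of ribosomal and telomerase RNA, stood at 62.6 FPKM in the cKO library and at 29.2, 70.2 and 20.9 FPKM in the Stat5fl/fl libraries with RANKL and IL-3, RANKL and M-CSF. Ncl, which encodes nucleolin, stood at 234 FPKM in the cKO library and at 116, 258 and 92.5 FPKM in the same order. Npm1, the nucleophosmin gene, stood at 1217 FPKM in the cKO library and at 697, 1260 and 450.3 FPKM in the same order. Each had its highest level with RANKL, its lowest with M-CSF, and a higher level in cKO than in Stat5fl/fl cells with RANKL and IL-3, as Myc did. Scaling by the median ratio left the medians at 0.94, -0.59 and 0.51 and the counts at 11 higher, 1 lower and 0 apart.

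Of the 32 growth and metabolic targets, 9 were higher and 1 (Ccnd2) was lower with RANKL (median 0.76, against 0.14 for all genes). Of all genes, 5.44% were higher and 6.87% lower. Hspd1, a mitochondrial chaperone gene, stood at 326 FPKM in the cKO library and at 205 FPKM, 374 FPKM and 129 FPKM in the Stat5fl/fl libraries with RANKL and IL-3, RANKL and M-CSF. Impdh2, of guanine nucleotide synthesis, stood at 215 FPKM in the cKO library and at 108, 218 and 85.1 FPKM in the same order. With IL-3, 2 targets were higher (Ccnd2 and Slc2a1) and 3 were lower (Tfrc, Apex1 and Impdh2), beside 6.11% and 3.47% of all genes. The median was -0.48, against -0.15 for all genes. For cKO against Stat5fl/fl, 1 was higher (Tfrc) and 1 was lower (Ccnd2), beside 2.13% and 4.29% of all genes. The median was 0.47, against 0.13 for all genes. Tfrc, the transferrin receptor gene for iron uptake, stood at 84.7 FPKM in the cKO library and at 28.0, 95.3 and 51.9 FPKM in the same order, below its M-CSF level where IL-3 was given to Stat5fl/fl cells. Ccnd2, the cyclin D2 gene and also a STAT5 target, ran the other way, at 0.67 FPKM in the cKO library and 5.11, 0.54 and 3.45 FPKM in the others.

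Of the 20 cell cycle genes, 0 were 2-fold apart in any comparison, with medians of 0.15 for RANKL, -0.38 with IL-3 and 0.54 in cKO, and all 20 were above 0 in cKO against Stat5fl/fl. Their median in that comparison lay between those of the growth and metabolic targets and of the nucleolar targets, and the part of cell division in the target ratios was not tested. Of the 9 compared genes that MYC represses, 3 were higher and 3 lower with RANKL, 1 was higher with IL-3 and 0 were 2-fold apart in cKO. Over all genes compared, 12.3%, 9.58% and 6.42% were 2-fold apart for RANKL, IL-3 and cKO. The medians of the 9 were 0.05, 0.26 and -0.12, against 0.14, -0.15 and 0.13 for all genes. The gene higher with IL-3 was Cdkn1a, the p21 cell cycle inhibitor, at 144 FPKM in the cKO library and at 239.7, 75.8 and 165 FPKM in the Stat5fl/fl libraries with RANKL and IL-3, RANKL and M-CSF.

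**Figure D5:**
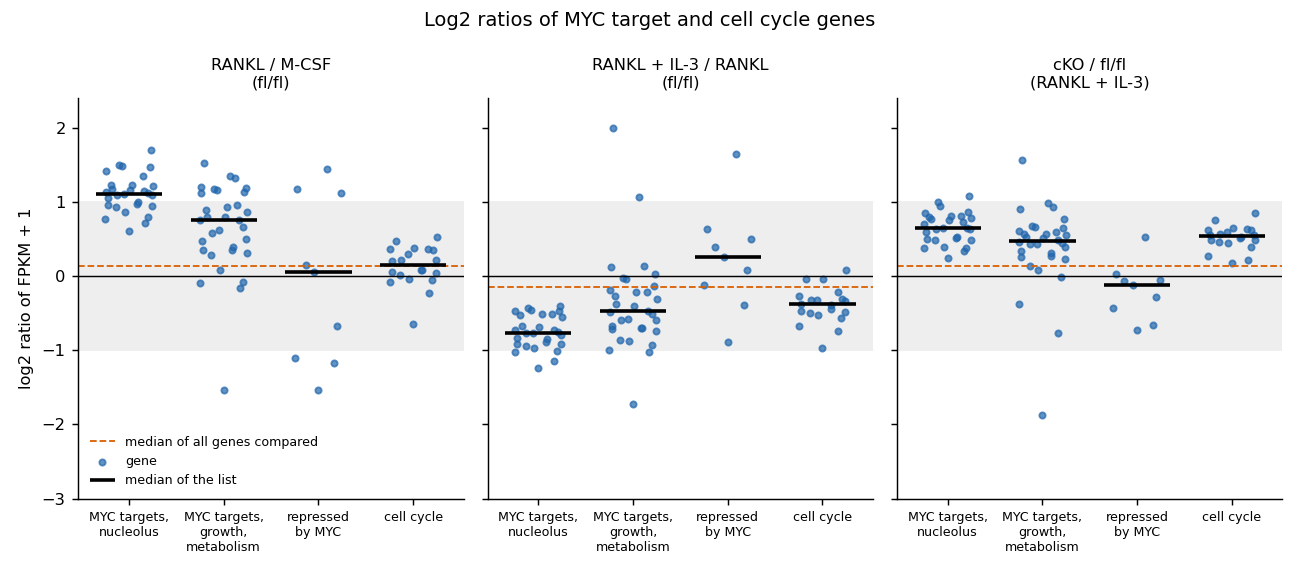
Log2 ratio of FPKM + 1 (y axis) of each gene (points) of 4 lists (x axis) in the 3 comparisons, with a black bar at the list median, a dashed line at the median of all genes and grey shading within 2-fold. The nucleolar targets have medians of 1.11, -0.76 and 0.65, and the cell cycle genes of 0.15, -0.38 and 0.54.

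Of 20 genes for PIM substrates, 3 were higher and 2 lower with RANKL, 1 higher (Cdkn1a) and 1 lower (Nfatc1) with IL-3, and 1 higher (Nfatc1) in cKO (medians 0.20, -0.23 and 0.11). Over all genes compared, 12.3%, 9.58% and 6.42% were 2-fold apart in these comparisons, with medians of 0.14, -0.15 and 0.13. Nfatc1, the master transcription factor gene of osteoclasts and the gene of a protein that PIM1 can phosphorylate, stood at 84.8 FPKM in the cKO library and at 17.7, 157 and 13.6 FPKM in the Stat5fl/fl libraries with RANKL and IL-3, RANKL and M-CSF. Bad, a death-promoting substrate, stood at 27.3 FPKM in the cKO library and 26.7, 23.5 and 29.5 FPKM in the others. Among the inducers and chaperones of PIM kinases, the HSP90 gene Hsp90aa1 stood at 463 FPKM in the cKO library and at 263, 459 and 247 FPKM in the Stat5fl/fl libraries, and so was lower in the library with the most Pim1 than in the other 2 that received RANKL. Jak2, the kinase that couples the IL-3 receptor to STAT5, stood at 5.62 FPKM in the cKO library and 8.19, 5.29 and 6.62 FPKM in the others.

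Feedback and survival targets of STAT5 were read beside Pim1. Of 12, 8 were higher and 1 lower (Bcl6) with IL-3 (median 2.27), and 8 were lower and 1 higher (Bcl6) in cKO (median -1.96). Over all genes compared, 6.11% were higher and 3.47% lower with IL-3 (median -0.15). In cKO, 2.13% of all genes were higher and 4.29% lower (median 0.13). Cish, whose product dampens cytokine receptors, stood at 0.16 FPKM in the cKO library and at 14.6, 0.07 and 0.07 FPKM in the Stat5fl/fl libraries with RANKL and IL-3, RANKL and M-CSF. Socs2, of the same inhibitor family, stood at 0.41 FPKM in the cKO library and at 9.22, 0.60 and 0.27 FPKM in the same order. Both were high in the same single library as Pim1. Bcl2l1, which encodes the survival protein BCL-XL, was different, at 19.3 FPKM in the cKO library and at 82.5, 7.90 and 81.9 FPKM in the same order. It was thus as high with M-CSF as with RANKL and IL-3. Id1 and Id2 were also high with M-CSF. Id1 stood at 130, 8.51 and 133 FPKM in the Stat5fl/fl libraries in the same order, and Id2 at 201, 21.6 and 122 FPKM. Both Id genes belong to the 12 and enter each count of 8 given above. The paper proposed them as STAT5 targets from these same libraries, so their share of those counts is not independent evidence. Further evidence in the paper included quantitative PCR. There, active STAT5A raised both genes, and IL-3 did not raise them in STAT5-deficient cells. With RANKL against M-CSF, 2 of the 12 were higher and 4 lower (median -0.70), where Pim1 was level. Over all genes compared, 5.44% were higher and 6.87% lower in that comparison (median 0.14).

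Of the IL-3 receptor genes, the shared beta chain gene Csf2rb stood at 41.3 FPKM in the cKO library and at 165 FPKM, 64.2 FPKM and 32.2 FPKM in the Stat5fl/fl libraries with RANKL and IL-3, RANKL and M-CSF. The IL-3-specific beta chain gene of the mouse, Csf2rb2, stood at 29.7 FPKM in the cKO library and at 52.7, 47.3 and 16.5 FPKM in the same order. Because these genes are near-identical copies, the split of fragments between them is uncertain. The IL-3 receptor alpha chain gene Il3ra stood at 10.55 FPKM in the cKO library and 13.2, 11.4 and 17.0 FPKM in the others. Csf2ra, the GM-CSF receptor alpha chain gene kept on the same list, stood at 110 FPKM in the cKO library and 180, 108 and 166 FPKM in the others. The cKO cells thus retained transcripts of all of these genes, but at lower levels than Stat5fl/fl cells with RANKL and IL-3. The log2 ratios were -1.97 for Csf2rb, -0.81 for Csf2rb2, -0.70 for Csf2ra and -0.30 for Il3ra.

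Markers of other cells moved with Pim1 in part. The 9 neutrophil markers were detected in all 4 libraries, with summed levels of 789 FPKM in the cKO library and 1246, 757 and 1327 FPKM in the Stat5fl/fl libraries with RANKL and IL-3, RANKL and M-CSF. All 9 ratios were above 0 with IL-3, and 1 was 2-fold higher, beside 6.11% of all genes. In cKO, 8 were below 0 and 2 were 2-fold lower, beside 4.29%. Mmp8, among them, stood at 8.42 FPKM in the cKO library and 143, 8.90 and 20.9 FPKM in the others, a course like that of Pim1, whereas S100a8 stood at 293 FPKM in the cKO library and 437, 275 and 513 FPKM in the others, highest with M-CSF, where Pim1 was low. The platelet chemokine gene Ppbp stood at 6.98 FPKM in the cKO library and 125.3, 4.38 and 13.7 FPKM in the others. The remaining platelet genes on that list were low in every library, with Itga2b at no more than 1.02 FPKM and Gp9 at no more than 0.60 FPKM, and 2 of the 10 erythroid and platelet markers were compared. The 12 dendritic cell markers summed to 180.0 FPKM in the cKO library and 721, 167 and 250.8 FPKM in the others, with Itgax (CD11c) at 9.95 FPKM in the cKO library and 99.7, 10.2 and 7.78 FPKM in the others. Of the 7 dendritic cell markers compared, 6 were higher with IL-3 and 6 were lower in cKO, beside 6.11% and 4.29% of all genes. All 7 ratios were above 0 with IL-3 and below 0 in cKO. The defining dendritic genes Flt3 and Zbtb46 stayed under 0.5 FPKM in every library. The 12 macrophage markers summed to 12972 FPKM in the cKO library and 18747, 8619.9 and 24152 FPKM in the others, highest with M-CSF, where Pim1 stood at 7.17 FPKM. All 12 ratios were above 0 with IL-3, and 8 were 2-fold higher, beside 6.11% of all genes. In cKO, 11 were below 0 and 7 were 2-fold lower, beside 4.29%. RANKL against M-CSF left 11 of them 2-fold lower, beside 6.87%. The part of these cells in the Pim1 difference was not tested. The 10 T, B and NK cell markers summed to less than 4 FPKM in every library.

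The genes nearest in course were searched among the 8444 genes that reached 5 FPKM in any library, by the distance between the 4 values of log2(FPKM + 1) less their mean. For Pim1 they were Csf1, Fcgr2b, Tmem53, Cxcl1 and Vsig8, at distances of 0.26 to 0.36. Fcgr2b, the inhibitory Fc receptor gene, stood at 39.8 FPKM in the cKO library and at 154, 29.6 and 36.1 FPKM in the Stat5fl/fl libraries with RANKL and IL-3, RANKL and M-CSF. Csf1, which encodes M-CSF itself, stood at 0.58 FPKM in the cKO library and at 5.02, 0.41 and 0.39 FPKM in the same order. For Myc they included Zmiz2, Npm1, Ppa1 and Hspd1 (0.09 to 0.16), of which Npm1 and Hspd1 are on the target lists above. For Pim3 they were Noc4l, Gnb4, Mink1, Rilpl2 and Rpl26 (0.10 to 0.11), of which Noc4l is on the nucleolar list. For Pim2 they were Ptpn11, Dpm2, Ccdc47, Glo1 and Ccndbp1, and for Mxd1 they were Rpl41, Urgcp, 2310009B15Rik, Ssr2 and Atf4, in both cases genes with nearly level values. With 4 libraries such likeness is a description and nothing more.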

How the data were processed

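The sample labels give 4 bulk RNA libraries, 1 for each condition. According to the submitters' processing notes and the methods section, the authors used TruSeq RNA libraries and a HiSeq2000, TopHat2 2.0.13 for alignment against mm10, and Cufflinks 2.2.1 for expression per RefSeq transcript. The deposited values were read as FPKM, which the table does not name. Each column was assigned by the description in the sample labels. Transcripts were summed per gene ID, 40 small RNA genes were left out, and log2(FPKM + 1) ratios were taken over the 10769 genes that reached 1 FPKM in any library. No test, p-value or standard error was computed. Depth was estimated from steps of 1 fragment in low values of transcripts of at least 3000 nt, of which 66.8% to 70.0% lay within 0.2 steps of a whole number, where even spacing gives 40%; Poisson intervals (95%) rest on it. Positions and lengths came from GENCODE M21 (GRCm38).

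The genes and 21 gene lists were chosen with earlier results of these data known, and 265 of 266 list entries were found. Named were the 8 genes, the other network, receptor and targeted genes, up to 4 genes per other list with the largest ratios at 5 FPKM or more, and the 5 nearest genes, of which 1 is not reported here. Bad, Bcl6, Calcr, Fbxw7, Flt3, Gp9, Itga2b, Itgb3, Klf5 and Zbtb46, outside this rule, were named after their values were seen. Alternatives were a smaller pseudocount (0.1 FPKM), a median-ratio or upper-quartile scaling, no minimum or one of 5 FPKM, thresholds of 1.5-fold and 4-fold, and the most abundant transcript. The steps were tested on simulated data. The software was Python 3.11.15 with pandas 2.3.3, numpy 2.4.6, matplotlib 3.10.9 and scipy 1.17.1.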

Additional observations from a re-analysis of the deposited data

How the results depend on the processing

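Pim3 and Myc with RANKL, and Pim1 with IL-3 and in cKO, stayed at least 2-fold apart with a pseudocount of 0.1 FPKM, with scaling by the median ratio or the upper quartile, with a minimum of 5 FPKM or none, and with the most abundant transcript per gene. Other thresholds changed the counts. At 4-fold, 0 of the 8 genes were apart for RANKL, and Pim1 remained for IL-3 and cKO. At 1.5-fold, 4 genes were apart with IL-3 (Pim1, Pim3, Myc and Mga) and 2 in cKO (Pim1 and Myc). With the most abundant transcript, 2 genes were apart with IL-3 (Pim1 and Mga). With Mxd1 and Mxi1 only in the denominator, the Myc ratio was 11.5 in the cKO library and 7.39, 12.6 and 4.01 in the Stat5fl/fl libraries with RANKL and IL-3, RANKL and M-CSF, which puts RANKL above cKO. With the most abundant transcripts, a setting chosen after seeing the data, it was 6.47, 4.95 and 6.22 in the first 3 of these. For the nucleolar targets the 18 genes higher with RANKL became 11 with median-ratio scaling. Under the settings together, 26 of 96 values of the 8 genes moved by more than the counting half-width, which is too wide for low genes. No paired analysis was possible because each condition has 1 library. Depth limits Pim2 most, where 60.1 to 79.0 fragments leave a counting half-width of 0.47 to 0.48 on the log2 scale of FPKM without the added 1.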

Other observations

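Most cofactor genes of MYC had ratios of the same sign as Myc, whereas its turnover genes did not share a single course. Of 12 cofactor genes, 11 were above 0 with RANKL, 11 below 0 with IL-3 and 11 above 0 in cKO. Their medians were 0.44, -0.39 and 0.31, against 0.14, -0.15 and 0.13 for all genes. At the 2-fold threshold, 1 was higher with RANKL (Ruvbl2) and 1 lower (Bin1), and 0 were apart with IL-3 or in cKO. Over all genes compared, 12.3%, 9.58% and 6.42% were 2-fold apart for RANKL, IL-3 and cKO. Ruvbl2, an ATPase of chromatin complexes that bind MYC, stood at 81.1 FPKM in the cKO library and at 48.2, 82.1 and 37.6 FPKM in the Stat5fl/fl libraries with RANKL and IL-3, RANKL and M-CSF. Bin1, which encodes a MYC-binding adaptor, stood at 65.9 FPKM in the cKO library and at 71.3, 52.8 and 112 FPKM in the same order. Of 11 compared genes of MYC protein turnover, 0 were 2-fold apart in any comparison. Fbxw7, the ubiquitin ligase gene for phosphorylated MYC, stood at 3.59 FPKM in the cKO library and 4.37, 3.70 and 4.17 FPKM in the others, and Huwe1, another ligase gene, at 25.9 FPKM in the cKO library and 18.9, 33.6 and 18.5 FPKM in the others. Fbxw7, Gsk3b and Ppp2r5a had log2 ratios of the opposite sign to Myc in all 3 comparisons, for Ppp2r5a at -0.33 for RANKL, 0.62 with IL-3 and -0.53 in cKO.

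Klf5, on the list of PIM inducers and chosen after its values were seen, stood at 2.63 FPKM in the cKO library and at 0.12, 2.24 and 0.19 FPKM in the same order, low in the library with the most Pim1. Mdm2, which encodes a PIM substrate that restrains p53, stood at 148 FPKM in the cKO library and at 99.0, 126 and 57.7 FPKM in the same order.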
